A study of Cicer arietinum with 4 samples.

Results

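LHY, LUX, PRR37A and PRR59C, 4 genes of the circadian clock, were examined in the ovules of the grain legume chickpea (Cicer arietinum) after and before fertilization. They are 4 of the 28783 genes in the deposited expression table and were matched on their names. Ovules, the structures of the ovary that hold the egg cell and become seeds, came from cultivar ICC4958, and total RNA was sequenced in 2 libraries per stage. Post-fertilization ovules were labelled as coming from flowers that had opened in part, and pre-fertilization ovules as coming from buds that were still closed. No genotype, treatment or plant age is given that separates the stages, so flower opening and fertilization cannot be told apart. The labels give neither the hour of collection nor whether the libraries of a stage came from separate plants, so the spread between libraries may be technical. The libraries are called post A, post B, pre A and pre B, and the letters carry no order.

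The plant clock is a loop of transcription factors that repress each other in turn through the day. In Arabidopsis, LHY is a MYB factor made around dawn that represses genes of the evening. The pseudo-response regulators (PRR) follow one another from morning to evening and repress LHY, and LUX acts at dusk with ELF3 in the evening complex, which represses PRR genes. These roles are from Arabidopsis, and the transcripts of such genes follow the hour at which tissue is taken.

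The 4 genes were chosen from the comparison described here. A list of clock genes, matched by symbol, found 11 in the table, and the 4 are those that passed limma's adjusted p threshold of 0.05 between post- and pre-fertilization ovules. Their fold changes are therefore a description without a test. Of the 4, 3 were lower and 1 was higher after fertilization. Among all tested genes 15.5% passed as lower and 21.0% as higher, an order that quantile normalization reversed (4047 lower and 2956 higher). The share of 4 in 11, 36.4%, stood beside 36.5% among all 17849 genes tested, which were those with at least 1 FPKM (fragments for each kilobase of a transcript, relative to all fragments mapped in the library) in 2 or more libraries. LUX, with an adjusted p of 0.0335, was the member nearest the threshold on the inside, and ELF3A, with 0.0789, the nearest gene of the list outside it. Of the 30 symbols fixed as markers of ovule, female gametophyte, early seed, anther, petal and green tissue, 0 matched a symbol in the tables, so the tissue was not checked against markers here. In whole tissue, fewer cells of a type and less RNA per cell cannot be told apart.

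LHY, the morning factor, reached 27.5 FPKM in post A and 40.7 FPKM in post B, against 73.3 in pre A and 69.7 in pre B. The stages did not overlap, and the post-fertilization libraries lay 1.48-fold apart, wider than the 1.05-fold between the pre-fertilization libraries. Its mean was 34.1 ± 9.34 FPKM after and 71.5 ± 2.56 FPKM before fertilization (SD, n = 2 each), 2.09-fold lower after fertilization. Comparing single libraries, the drop lay between 1.71-fold and 2.66-fold. Among the tested genes LHY stood at the 77.8th percentile of level after and at the 90.9th before fertilization. The gene lies on chromosome 3 from 39780479 to 39789095. Coordinates are those that the authors deposited, of a build that the sources used here do not name.

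**Figure D1:**
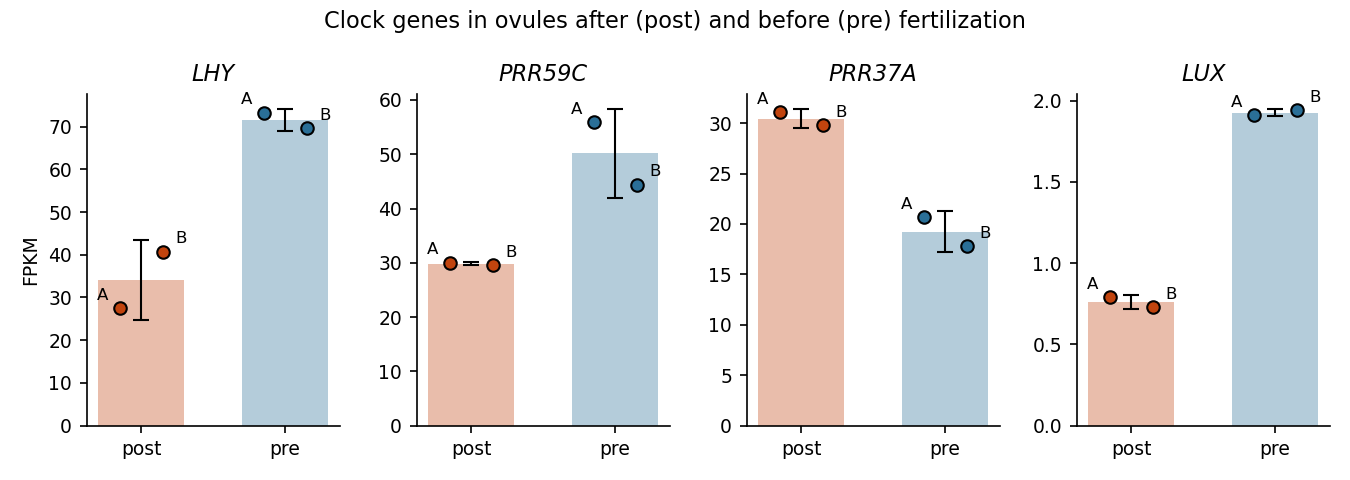
FPKM (y axis, from 0, with its own scale for each gene) of LHY, PRR59C, PRR37A and LUX in post-fertilization (left) and pre-fertilization (right) ovules. Bars are means, error bars the SD of 2 libraries and points the libraries A and B. LHY, PRR59C and LUX are lower in both post-fertilization libraries, PRR37A is higher in both, and LHY has its widest gap between post A at 27.5 and post B at 40.7 FPKM.

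PRR59C is named after the PRR5 and PRR9 branch of the pseudo-response regulators, which repress LHY in Arabidopsis. It stood at 30.0 FPKM in post A and 29.6 FPKM in post B, against 55.9 in pre A and 44.4 in pre B. Here the post-fertilization libraries lay 1.01-fold apart, closer than the 1.26-fold between the pre-fertilization libraries, and the stages did not overlap. The means were 29.8 ± 0.278 FPKM after and 50.1 ± 8.15 FPKM before fertilization (SD, n = 2 each), 1.68-fold lower after fertilization and between 1.48-fold and 1.89-fold lower for single libraries. PRR59C lies on chromosome 3 from 39742614 to 39747349.

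PRR37A, of the PRR3 and PRR7 branch of the same family, was the member that was higher after fertilization. Its level was 31.1 FPKM in post A and 29.8 FPKM in post B, against 20.7 in pre A and 17.8 in pre B. Every post-fertilization value was above every pre-fertilization value. The means were 30.4 ± 0.950 FPKM after and 19.2 ± 2.05 FPKM before fertilization (SD, n = 2 each), a ratio of 1.58, and 1.44 to 1.75 for single libraries. PRR37A lies on chromosome 6 from 27227835 to 27237354.

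LUX, a factor of the evening complex, was the lowest of the 11 clock genes in every library. It had 0.791 FPKM in post A and 0.730 FPKM in post B, against 1.91 in pre A and 1.94 in pre B. The libraries of a stage lay close together, within 1.08-fold after and 1.01-fold before fertilization. The means were 0.760 ± 0.0434 FPKM after and 1.92 ± 0.0195 FPKM before fertilization (SD, n = 2 each), 2.53-fold lower after fertilization. With quantile normalization they were 0.422 FPKM after and 2.16 FPKM before fertilization, 5.11-fold lower. The size of the drop therefore depended on the scaling. LUX lies on chromosome 6 from 54242622 to 54245220. It met the filter of 1 FPKM through its pre-fertilization libraries only, so that among genes kept by that filter it could hardly have been higher after fertilization.

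The depth behind LUX is not known and was only estimated. Genes whose span in the genome is within 10% of that of LUX, 2330 in all, had lowest values of 0.0228 FPKM in post A, 0.0221 in post B, 0.0230 in pre A and 0.0420 in pre B, after values of 0.01 FPKM or less were set aside. Each was taken as the worth of 1 fragment on a transcript as long as its gene. LUX then had about 35 fragments in post A, 33 in post B, 83 in pre A and 46 in pre B. A shorter LUX transcript gives fewer. A lowest value that came from more fragments or from a shorter transcript gives more, so these numbers are no bounds. At these numbers counting error alone would be about 17.0% in post A, 17.4% in post B, 11% in pre A and 14.7% in pre B. That is wider than the gap between libraries of a stage. The close match of the LUX libraries was therefore not read as a measure of its precision.

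Among all tested genes the sizes were moderate. Limma's log2 fold change on log2(FPKM + 1), a scale that understates the change of low genes, was -1.07 (SE 0.20) for LHY, -0.72 (SE 0.14) for PRR59C, 0.64 (SE 0.12) for PRR37A and -0.73 (SE 0.17) for LUX. The median absolute value over all called genes was 0.96, and 2791 of the 6522 called genes changed by at least as much as LHY. By signed fold change LHY stood at percentile 5.09 of all tested genes, LUX at 10.8, PRR59C at 11.1 and PRR37A at 78.7.

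**Figure D2:**
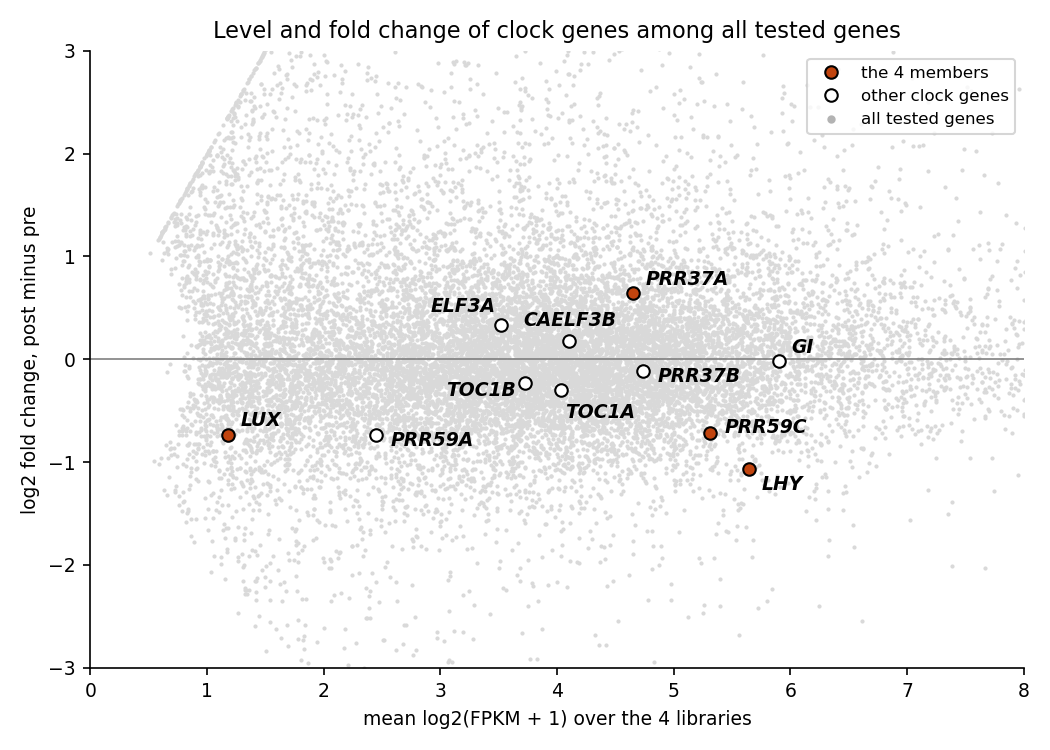
Mean log2(FPKM + 1) over the 4 libraries (x axis) against the limma log2 fold change, post minus pre (y axis), for all tested genes (grey), the 4 genes described (filled) and the 7 other clock genes (open). Genes beyond the axes are not drawn. LHY at -1.07 is the lowest of the 11 clock genes and PRR37A at 0.64 the highest, and each lies inside the cloud of all genes.

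The order of levels differed between the stages. After fertilization LHY, PRR37A and PRR59C followed each other at 34.1, 30.4 and 29.8 FPKM, and each overlapped the next, so that their order was not resolved. LUX was far below them. Before fertilization LHY at 71.5 FPKM was above PRR59C at 50.1, PRR59C above PRR37A at 19.2 and PRR37A above LUX at 1.92, with no overlap between these neighbours. LHY over PRR37A came to 0.885 in post A and 1.37 in post B, against 3.55 in pre A and 3.92 in pre B. LHY over PRR59C, both of which were lower after fertilization, overlapped between the stages, at 0.917 in post A and 1.37 in post B, against 1.31 in pre A and 1.57 in pre B. LHY over LUX overlapped as well, at 34.8 and 55.8 in post A and post B, against 38.4 and 36.0 in pre A and pre B.

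Within the pseudo-response regulators, PRR37A and PRR59C took shares that moved in opposite directions. The list holds 6 such genes, with TOC1A and TOC1B, named after the evening regulator TOC1. Genes of the family without a symbol are not in it. The summed level of the 6 genes was 117 FPKM in post A and 110 FPKM in post B, against 144 in pre A and 122 in pre B. PRR37A made up 26.6% and 27.1% of that sum after fertilization, against 14.4% and 14.6% before. PRR59C made up 25.7% and 27.0% after fertilization, against 38.9% and 36.3% before. PRR37A was above its paralog PRR37B after fertilization and below it before, with a ratio of 1.32 and 1.15 after against 0.755 and 0.678 before. The sources used here do not say how fragments shared by such related genes were counted.

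**Figure D3:**
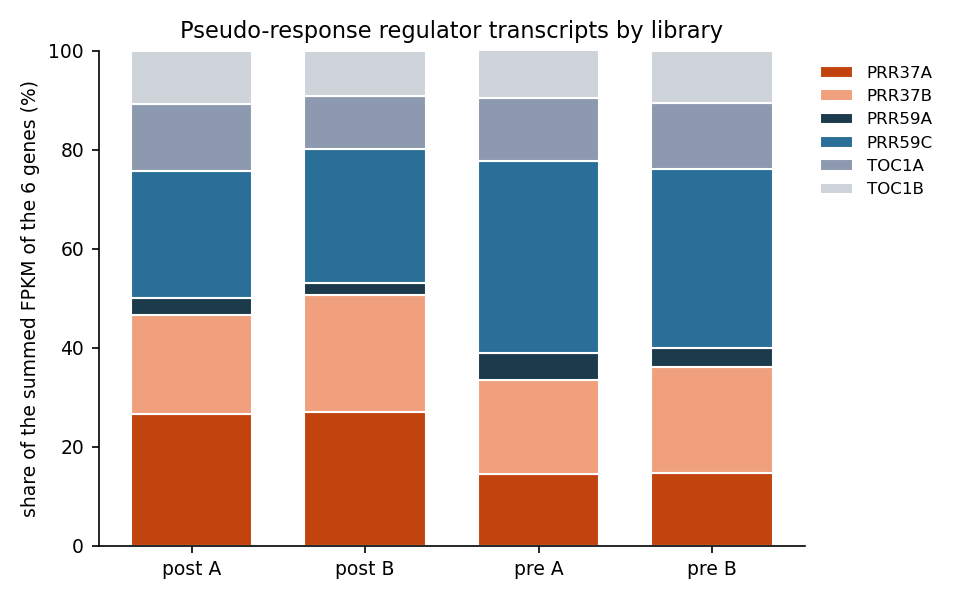
Share of the summed FPKM of the 6 pseudo-response regulator genes held by each (y axis, percent) in post A, post B, pre A and pre B (x axis), as stacked bars with 1 colour per gene. PRR37A holds 26.6% and 27.1% in the post-fertilization libraries and 14.4% and 14.6% in the pre-fertilization libraries, while PRR59C holds 25.7% and 27.0% against 38.9% and 36.3%.

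Neither PRR59A nor PRR37B, the paralogs of these regulators found by symbol, passed the test, since every clock gene that passed was made a member. PRR59A, the other gene of the list from the PRR5 and PRR9 branch, had 3.91 FPKM in post A and 2.66 FPKM in post B. It had 7.91 in pre A and 4.6 in pre B. Its log2 fold change of -0.74 was about as large as that of PRR59C, but the spread within each stage was wide and it did not pass (limma adjusted p = 0.116). PRR59C over PRR59A overlapped between the stages, at 7.68 and 11.2 after fertilization against 7.06 and 9.65 before. PRR37B was at 24.7 ± 1.66 FPKM after and 26.8 ± 0.813 FPKM before fertilization (SD, n = 2 each; limma adjusted p = 0.430). Whether the paralogs of a pair differ in their fold change was not tested.

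TOC1, which in Arabidopsis represses LHY in the evening, is present under the symbols TOC1A and TOC1B. TOC1A had 15.9 FPKM in post A and 11.8 FPKM in post B, against 18.2 in pre A and 16.2 in pre B and missed the threshold (limma adjusted p = 0.231). TOC1B was at 12.6 and 9.97 FPKM after fertilization, against 13.8 and 12.9 before, and did not pass (limma adjusted p = 0.284). Values for both were lower in each post-fertilization library, but the gaps were small beside the spread.

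ELF3, the partner of LUX in the Arabidopsis evening complex, has the genes ELF3A and CAELF3B in the table. ELF3A had 11.7 FPKM in post A and 12.1 FPKM in post B, against 9.16 in pre A and 9.29 in pre B, which did not pass (limma log2 fold change 0.34, SE 0.11, adjusted p = 0.0789). CAELF3B was at 16.5 and 18.1 FPKM after fertilization, against 14.4 and 16.0 before (limma adjusted p = 0.289). The level of LUX was lower, and those of its possible partners slightly higher, in each post-fertilization library. ELF3A over LUX was 14.9 and 16.6 after fertilization against 4.80 and 4.80 before, and CAELF3B over LUX 20.9 and 24.9 against 7.56 and 8.25.

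GI, a large clock protein that in Arabidopsis links the clock to flowering, was the clock gene whose stages overlapped. Its values were 55.6 FPKM in post A and 61.1 FPKM in post B, against 63.5 in pre A and 55.0 in pre B (limma adjusted p = 0.910). LHY over GI was 0.495 and 0.667 after fertilization, against 1.15 and 1.27 before. GI was the highest of the 11 clock genes after fertilization and LHY the highest before it.

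Over the whole list 1 clock gene rose, 3 fell and 7 did not pass, and the median log2 fold change was -0.23, against 0.02 over all tested genes. Of the 7 genes besides the members 0 passed limma's test, which the choice of the members fixed. Among these 7, 1 had an unadjusted limma p under 0.05 and the median log2 fold change was -0.11. The stages did not overlap for 10 of the 11 genes, 7 lower and 3 higher after fertilization, while 75.7% of all tested genes did not overlap (36.4% lower and 39.3% higher). With the tested genes unchanged, no member kept its call in every fit that left out a library. Of all tested genes, 4.03% passed without pre A, 2.66% without pre B, 35.2% without post A and 22.4% without post B. Fits without a library have 1 residual degree of freedom and take the spread of the lone library's stage from the other stage. Their calls are therefore no test of single members.

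**Figure D4:**
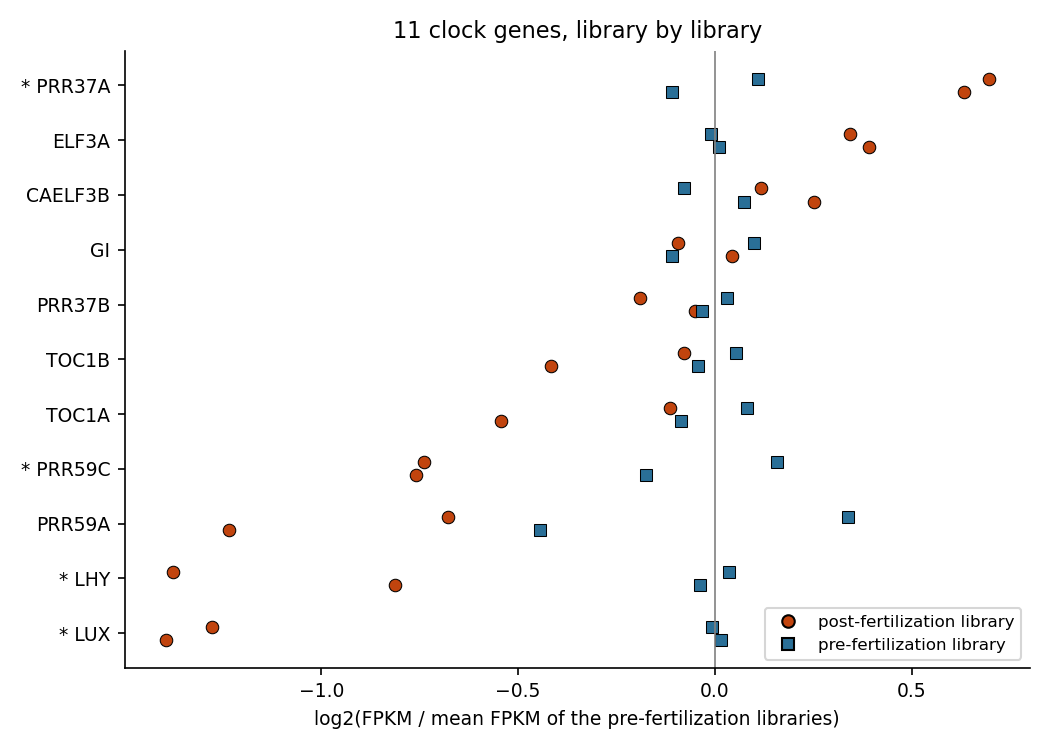
Log2 of the FPKM of each library over the mean of the pre-fertilization libraries (x axis) for the 11 clock genes (y axis, the 4 members marked with an asterisk). Circles are post-fertilization and squares pre-fertilization libraries, with library A above library B. For 7 genes both circles lie left of both squares, for 3 right of them, and GI overlaps.

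A list of photoreceptors and day-length outputs was matched by symbol, so genes without one could not be found. It found 6 genes in the table, all of the FT and TFL1 family, whose FT members promote and TFL1 members delay flowering. Of the 4 that passed the filter 2 rose, 0 fell and 2 did not pass, with a median log2 fold change of 0.75, against 0.02 over all tested genes, of which 21.0% rose and 15.5% fell. With quantile normalization 1 of them rose and 1, FTA3, fell (limma adjusted p = 0.0493). FTA1 had 10.2 FPKM in post A and 12 FPKM in post B, against 4.94 in pre A and 5.44 in pre B (limma log2 fold change 0.96, SE 0.15, adjusted p = 0.0124). With a library left out its log2 fold change ranged from 0.86 to 1.07, in fits that do not test its call. TFL1A was at 1.5 and 1.12 FPKM after fertilization and listed at 0 in both libraries before (limma adjusted p = 0.0157). It met the filter through the post-fertilization libraries only, and its call was lost without pre A (adjusted p = 0.0989), without pre B (adjusted p = 0.0964) and with quantile normalization (adjusted p = 0.0504). FTA2, which begins close to the end of FTA1, did not pass (limma adjusted p = 0.0627), nor did FTA3 (limma adjusted p = 0.144).

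By position, LHY and PRR59C are near neighbours. They lie 33.1 kb apart on chromosome 3, with 4 genes between them in the deposited table and 4 in the RefSeq gene table of another assembly. PRR37A and LUX share chromosome 6, with 1099 genes between them in the deposited table and 93 in the RefSeq table, so their distance depends on the assembly. Of the 4 genes between PRR59C and LHY 3 were tested. LOC101500319, a gene with no product name in the tables, fell, with 0.496 FPKM in post A and 0.655 FPKM in post B against 3.32 in pre A and 1.74 in pre B (limma adjusted p = 0.0387), and the other two did not pass. It met the filter through its pre-fertilization libraries only. Its call did not hold at a pseudocount of 5 (limma adjusted p = 0.0565) or when all genes above 0 were tested (limma adjusted p = 0.0524). With a library left out and the tested genes unchanged, its log2 fold change ranged from -1.46 to -0.8. Such fits do not test its call. Within 50 kb of any of the 4 members lay 39 other genes, of which 31 were tested, 5 rose, 6 fell and 20 did not pass. The share that passed, 35.5%, was near the 36.5% of all genes.

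**Figure D5:**
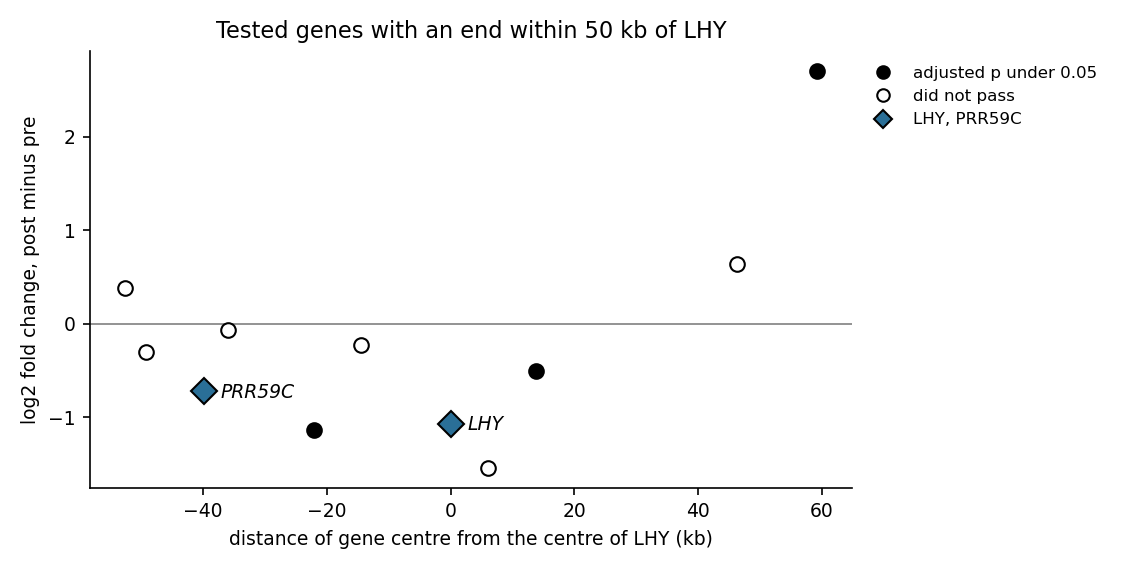
Limma log2 fold change, post minus pre (y axis), of tested genes with an end within 50 kb of LHY, by the distance of their centre from that of LHY (x axis, kb). Diamonds are LHY and PRR59C, filled circles other genes with an adjusted p under 0.05 and open circles genes that did not pass. Between the diamonds 1 of 3 tested genes is filled, LOC101500319 at -1.13.

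The genes with a symbol whose values over the 4 libraries were most like those of each member were found among 191 candidates, by the root mean square difference of centred log2(FPKM + 1) values. For LHY they were the heat stress factors HSFB4B (0.224) and HSFA4A (0.225), and for LUX the auxin response factor ARF6 (0.0289) and the NAC factor NAC18 (0.0293). For PRR37A they were FTA2 (0.0820) and the expansin gene CA-EXPA3 (0.0877), and for PRR59C the kinase gene MAPK3 (0.0690) and ARF2 (0.113). HSFB4B had 4.65 FPKM in post A and 4.81 FPKM in post B, against 12.7 in pre A and 13.7 in pre B, without the gap between post A and post B that LHY showed. HSFA4A had that gap, at 4.73 and 7.08 FPKM after fertilization against 11.4 and 8.55 before. The scale understates the change of LUX, a low gene, so its likeness to ARF6 and NAC18 depends on the pseudocount. At a pseudocount of 0.1 the limma log2 fold change was -1.23 for LUX, -0.82 for ARF6 and -0.78 for NAC18. With 4 libraries such likeness describes mainly the difference between the stages.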

How the data were processed

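Per the labels, ovules of 2 stages were sequenced as paired ends, with 2 libraries each. The authors deposited 1 table of FPKM values per gene and library. Cuffdiff, Cufflinks, FastQC, HISAT2 and fastp were used, per the submitters' processing notes, which give no versions or roles. The sources used here do not name the genome build or annotation, nor say whether libraries were scaled to each other. Median-of-ratios factors of the deposited values were 1.0044 in post A, 1.0034 in post B, 1.0028 in pre A and 0.99978 in pre B. Whether this reflects earlier scaling was not tested. Column names give the stage of each library and do not say which sample it is. Absolute depth is unknown, and summed FPKM was 2197998 in post A, 3574218 in post B, 1483036 in pre A and 1804431 in pre B. Gene numbers matched 25491 of 28783 genes to a RefSeq gene table (assembly Cicar.CDCFrontier_v2.0), in which only 203 starts are the same. It gave symbols, chromosome numbers and the RefSeq counts of genes between members. Distances and the genes within 50 kb follow the deposited coordinates.

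Log2(FPKM + 1) of genes with at least 1 FPKM in at least 2 libraries was analysed by limma 3.58.1 (R 4.3.3), with stage as the only term, with a variance trend, two-sided, with Benjamini-Hochberg adjustment over all tested genes and a threshold of 0.05. The fit was run on simulated data with less spread than LHY and PRR59C showed and with few changed genes. That run does not show how well the fit does on these data. Folds are ratios of mean FPKM and log2 fold changes are post minus pre. Members and lists were chosen with earlier results of these data known. Named were the members, all other clock genes, the called genes of the light and output list, the 2 genes most like each member and, after their values were seen, LOC101500319, FTA2 and FTA3. Promoter motifs and protein sequences were not analysed here. The alternatives were other pseudocounts (0.1 and 5), filters (none and 5 FPKM), scalings, no variance trend, leaving out each library, and a replicate block.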

Additional observations from a re-analysis of the deposited data

How the results depend on the processing

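All 4 members kept their direction with quantile normalization and with each library left out, which their lack of overlap fixes for the left-out libraries. Median-of-ratios scaling had factors of 0.99978 to 1.0044, so it left the values almost unchanged and could not test the direction. The log2 ratio of means, which uses no pseudocount or filter, ranged over the fits that leave out a library from -1.38 to -0.81 for LHY, -1.40 to -1.28 for LUX, 0.56 to 0.78 for PRR37A and -0.91 to -0.57 for PRR59C, and was -2.35 for LUX with quantile normalization. That normalization moved the median of all tested genes by -0.16. Relative to the median, LHY stood at -1.13 with it and -1.09 without, LUX at -1.01 and -0.75, PRR59C at -0.74 and -0.74, and PRR37A at 0.67 and 0.62. Of the 6522 genes called 57.6% rose, and of the 7003 called with quantile normalization 42.2%.

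With a library left out, the genes called ranged from 475 to 6275, clock genes from 0 to 2, light and output genes from 0 to 2 and neighbours of the members from 1 to 6. In fits chosen after the data were seen, with the filter applied again to the 3 libraries left, they were 7404 without post A, 5739 without post B, 776 without pre A and 653 without pre B, clock genes from 0 to 4, light and output genes 0 or 1 and neighbours from 1 to 10. In these LUX lost its call without post A (limma adjusted p = 0.0559) and without post B (limma adjusted p = 0.0743), and TOC1A passed without post A (limma adjusted p = 0.0414). A filter of 5 FPKM left 1 call among light and output genes and 6 among neighbours, since fewer genes were tested, and LUX was not tested. GI, which passed in no fit, had a log2 fold change of -0.02 with all libraries, 0.05 without post A and 0.08 without pre A, and ranged from -0.12 to 0.08 with a library left out. It was -0.23 with quantile normalization. A replicate block by the ending of the column name called 5626 genes. It ended the call of LUX (limma adjusted p = 0.0703) and that of LOC101500319 (limma adjusted p = 0.0572), and called PRR59A (limma adjusted p = 0.0472), leaving 4 clock genes. The endings cannot be tied to the numbers of the labels, and deviations of libraries with the same ending correlated at 0.0215 over genes. That value cannot tell whether such libraries share a source. The low level of LUX, at a depth that is not known, limits its values.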
